A study of Mus musculus with 14 samples.

Results

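The genes described here are 46 genes of heart muscle cells, followed in mouse lung, where cardiac muscle lies in the wall of the pulmonary veins. They were chosen by name as cardiomyocyte genes of pulmonary vein muscle, with earlier results of these data known. Counts of members set beside shares of all genes therefore describe the list and do not test it. Of the 46, 45 had a row among the 24270 genes of the expression table. The troponin gene Tnni1 was not analysed here. Of the 46 listed genes, 5 are atrial (Myl4, Myl7, Sln, Nppa and Kcnj3), 13 are made in both atria and ventricles, and 28 are also made in skeletal muscle. All 45 genes with a row passed the filter on low values (0.2 ppm of the library in at least 3 libraries) and were tested.

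RNA sequencing was performed on lung RNA of C57BL/6 mice with an intact Mcemp1 gene (Mcemp1+/+, WT) or with a frameshift deletion in exon 1 made by CRISPR (Mcemp1-/-, KO). Mice were 6 to 8 weeks old when they were sensitized by intraperitoneal ovalbumin (OVA, the egg-white allergen) or saline on days 1, 4 and 7. Nasal challenge with the same agent began 5 days later and was repeated weekly for 8 weeks, which is a model of chronic asthma. The 14 libraries comprised 3 from saline-treated WT, 4 from OVA-treated WT, 3 from saline-treated KO and 4 from OVA-treated KO lungs. The lungs of the model were perfused and lavaged, and the part of the lung that was lysed for RNA is not given in the sources used here. The labels give no animal for a library, so the spread that the p-values rest on is that among libraries and may be technical.

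In mice the myocardium of the left atrium continues along the pulmonary veins into the lung as a sleeve of striated, beating muscle around the vessel. These cells carry the atrial program: atrial myosin light chains, the atrial calcium pump inhibitor sarcolipin, acetylcholine-activated potassium channels and the hormone atrial natriuretic peptide. They also use the general sarcomere, in which myosin thick filaments slide along actin thin filaments anchored at Z-discs, driven by calcium released through the ryanodine receptor and by energy buffered through creatine kinase.

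Values are normalized counts as deposited, and a group is written as mean ± SD with the number of libraries. The libraries stood for an estimated 47.3 M to 67.1 M reads each, and 42 members had at least 10 estimated reads in every library. The 3 thinner members were Xirp1, Sgca and Tbx20, of which Xirp1 was down to an estimated 2 reads (counting the small constant that every value of a library carries) in the library OVA WT 1. The lung identity of the tissue was plain, with the surfactant gene Sftpc between 6620 and 12400 in all libraries. Mcemp1, the gene with the frameshift in KO mice, lay between 9.84 and 20.1 in the 7 WT libraries. It lay between 3.5 and 4.98 in the 7 KO libraries, so the ranges did not overlap. The library OVA KO 3 stood apart by a brown fat transcript: Ucp1, the uncoupling protein of brown fat, was 16.2 there and at most 0.237 in the other 13 libraries.

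Regulatory sequence was examined in the 250 bases upstream of the annotated start of each gene (RefSeq, GRCm38.p6). Promoter entries were found for 38 of the 46 members, and none was used for Sln, Myom2, Xirp1, Rbm20, Tcap, Trdn, Fhod3 and Cox6a2. The motifs were the MEF2 site, bound by the MEF2 factors of striated muscle, and the CArG box, bound by serum response factor, each searched on both strands. A MEF2 site lay upstream of 5 of the 38 members (13.2%) and of 1.99% of all 27025 genes with an entry. A CArG box lay upstream of 4 members (10.5%) and of 1.62% of all genes. As a ratio, the shares of the other motifs were nearer to those of all genes. The letters CATTCC, for the TEAD factors, were found in 15.8% of members and 14.4% of all genes. The GATA factor motif AGATAA was found in 15.8% and 11.4%, the NKX2-5 motif TNAAGTG in 7.89% and 11.4%, the E-box CANNTG in 84.2% and 69.3%, and the box TATAAA in 7.89% and 14.3%. A match is a run of letters, not a proven binding site, and no test was made of these shares.

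The 9 matches are shown because the shares of these 2 muscle motifs, taken as a ratio to those of all genes, were the highest of the 7 motifs. Each line runs 5′ to 3′ along the gene with up to 25 bases on each side, and the capitals mark the motif. No other searched motif overlapped any of them. The windows of the plus strand are chr3:102086321-102086380 (Casq2), chr2:91118029-91118088 (Mybpc3) and chr17:71019433-71019492 (Myom1). Those of the minus strand are chr3:123034988-123035045 (Myoz2), chr11:5803842-5803901 (Pgam2), chr2:76982679-76982738 (Ttn), chr2:114052888-114052947 (Actc1), chr14:34588682-34588741 (Ldb3) and chr11:5898809-5898868 (Myl7). The first 5 lines hold a MEF2 site and the last 4 a CArG box.
Casq2: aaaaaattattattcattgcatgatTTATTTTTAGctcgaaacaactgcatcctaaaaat
Mybpc3: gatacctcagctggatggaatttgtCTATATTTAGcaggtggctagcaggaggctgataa
Myoz2: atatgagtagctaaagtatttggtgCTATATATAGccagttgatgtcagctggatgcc
Pgam2: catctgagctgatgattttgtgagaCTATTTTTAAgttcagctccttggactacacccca
Ttn: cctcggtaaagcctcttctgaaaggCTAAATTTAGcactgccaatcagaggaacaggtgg
Actc1: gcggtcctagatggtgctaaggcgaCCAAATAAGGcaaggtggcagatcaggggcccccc
Ldb3: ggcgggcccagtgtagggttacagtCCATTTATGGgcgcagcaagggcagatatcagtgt
Myl7: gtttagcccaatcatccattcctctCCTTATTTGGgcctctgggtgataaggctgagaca
Myom1: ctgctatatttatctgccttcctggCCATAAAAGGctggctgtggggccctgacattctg

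The sequence before Nppa, the natriuretic peptide gene, is shown whole because its values broke from those of the other atrial genes. It covers chr4:148000472-148000721 on the plus strand, and the capitals mark a TNAAGTG match near the far end and a TATAAA match close to the start. It held no MEF2 site and no CArG box.
Nppa: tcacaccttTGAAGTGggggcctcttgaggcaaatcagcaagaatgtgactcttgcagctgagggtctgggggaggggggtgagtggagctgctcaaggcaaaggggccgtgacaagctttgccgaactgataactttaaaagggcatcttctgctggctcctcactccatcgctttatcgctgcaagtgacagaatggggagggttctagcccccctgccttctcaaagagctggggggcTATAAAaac

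The summed level of the 45 genes varied widely across the libraries. They made up 0.179 ± 0.0396% of all normalized counts in saline WT lungs (n = 3), 0.0239 ± 0.00809% in OVA WT lungs (n = 4), 0.0934 ± 0.0306% in saline KO lungs (n = 3) and 0.0515 ± 0.026% in OVA KO lungs (n = 4). By library the share was 0.141, 0.176 and 0.22% in saline WT, 0.0127, 0.0316, 0.0243 and 0.0271% in OVA WT, 0.0595, 0.119 and 0.101% in saline KO, and 0.0257, 0.0351, 0.0824 and 0.0629% in OVA KO. The ranges of saline WT, saline KO and OVA WT did not overlap, while OVA KO libraries ran from within the OVA WT range to within the saline KO range. Saline WT 3 held the highest value of 39 members and OVA WT 1 the lowest value of 40. Most members thus moved together by library, so counts of members in any comparison are not counts of independent observations. The highest library exceeded the lowest by 2.0-fold for Jph2 to 96.3-fold for Nppa, with a median of 15.3-fold, and by more than 10-fold for 31 members. In lung tissue fewer cardiac muscle cells and less RNA per cell cannot be told apart. Nor can either be told apart from a difference in the part of the lung lysed, which is not given.

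**Figure D1:**
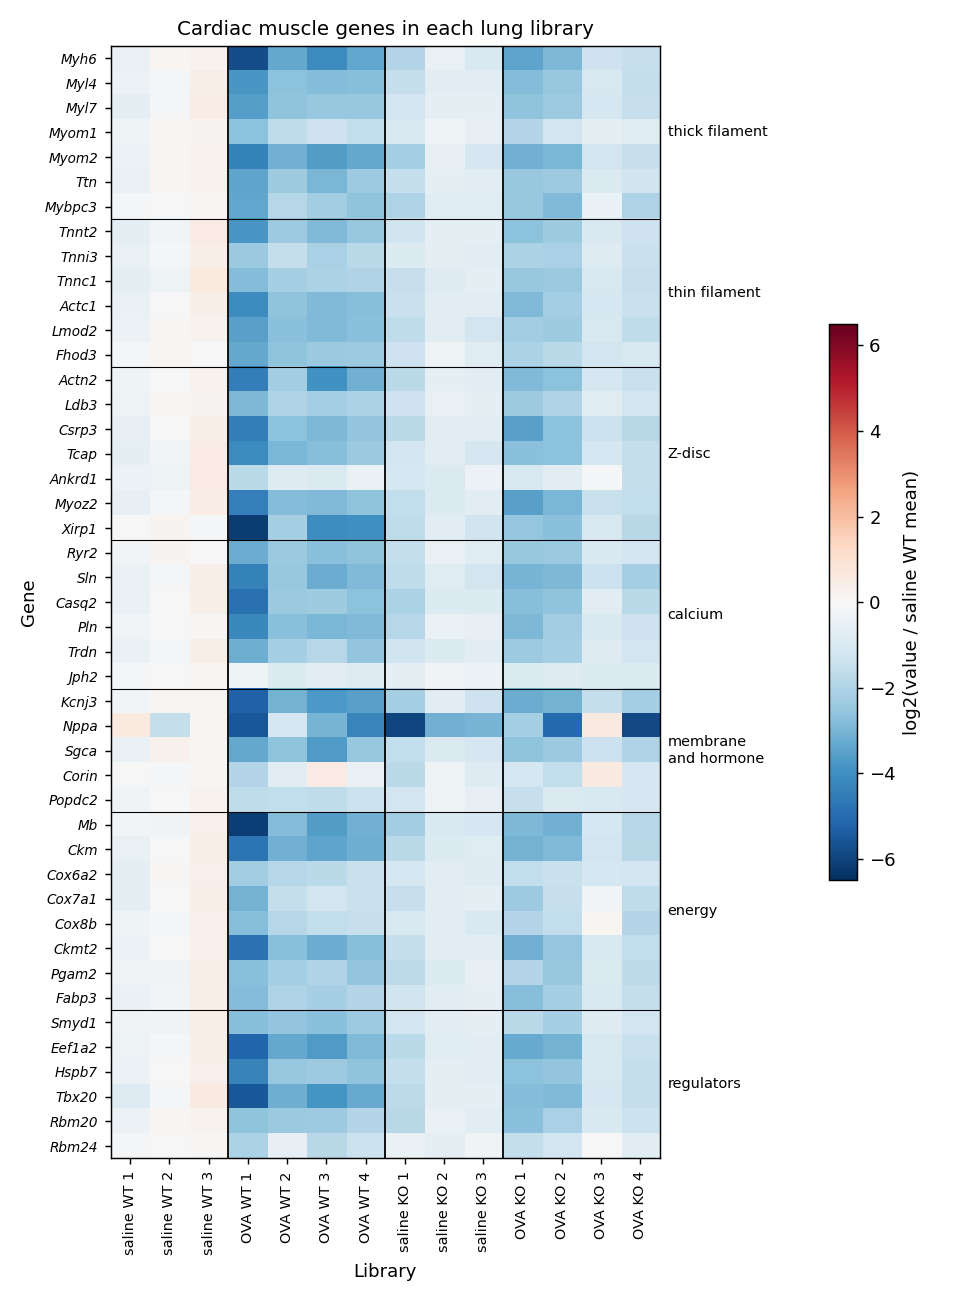
Each row is 1 of the 45 cardiac muscle genes, grouped by role, and each column 1 of the 14 libraries. Colour gives log2 of the value over the saline WT mean. OVA WT 1 is the darkest blue column. OVA WT 2 to 4 are about as dark as OVA KO 1 and 2, and all of these are darker than OVA KO 3 and 4. Nppa, Corin, Ankrd1, Jph2 and Rbm24 are among the rows that break the column pattern.

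The OVA response of WT lungs had the largest median change of the 5 comparisons made. With limma on log2 values and Benjamini-Hochberg adjustment over all 22828 tested genes, 42 of the 45 members were lower after OVA at an adjusted p under 0.05 and none was higher, against 7.45% of all genes lower. The median change of the members was -2.64 on the log2 scale, and that of all genes 0.01. In 43 of the 45 members every OVA WT library lay below every saline WT library, a pattern found in 12.6% of all genes, and the exceptions were Corin and Nppa. The changes ran from -4.08 for Myh6 to -0.55 for Corin. Ankrd1, Corin and Nppa did not pass the test. Without OVA WT 1, the lowest library, 40 members were called and the median was -2.31.

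The deepest change of the 45 members was that of a thick filament gene. Myh6 (chr14:54941921-54966927, minus strand), the fast alpha myosin heavy chain that is the main motor of the atrium and of the adult mouse heart, was 284, 412 and 438 in saline WT libraries and 7.06, 37.5, 21.8 and 36.1 in OVA WT libraries. The lowest saline value was 7.58 times the highest OVA value, and OVA WT 1 lay well under the other OVA libraries. The fitted log2 change was -4.08 ± 0.60 (SE; limma adjusted p = 0.00103). In KO lungs Myh6 was 102, 274 and 187 after saline and 35.2, 49.1, 149 and 131 after OVA, and the groups overlapped.

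The atrial myosin light chains were lower too. Myl7 (chr11:5896637-5898782, minus strand), the atrial regulatory light chain, was 63.2, 88 and 130 in saline WT and 7.83, 15.2, 16.9 and 17 in OVA WT libraries. Its log2 change was -2.68 ± 0.37 (limma adjusted p = 0.000663). Myl4 (chr11:104550663-104595753, plus strand), the atrial essential light chain, was 63.4, 78.1 and 109 in saline WT and 6.06, 12.9, 11.8 and 12.1 in OVA WT libraries, with a change of -2.92 ± 0.39 (limma adjusted p = 0.000567). Both genes were lowest in OVA WT 1 and clear of overlap between the WT groups. The ratio of Myl4 to Myl7 stayed between 0.7 and 1 in all 14 libraries, whereas that of Myh6 to Myl7 ran from 0.902 in OVA WT 1 to 4.68 in saline WT 2.

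The other 4 thick filament members also fell in WT: Ttn, the giant spring that runs from Z-disc to M-band, Mybpc3, the cardiac myosin-binding protein C, and the M-band crosslinkers Myom1 and Myom2. Myom1 had the smallest change of the role, -1.74, with 27.9 to 38.2 in saline WT and 5.36 to 13.3 in OVA WT. All 7 thick filament members were called lower, with a median of -2.69.

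All 6 measured thin filament members were lower, with a median of -2.32. Actc1 (chr2:114047282-114053548, minus strand), cardiac alpha-actin, was 119, 158 and 210 in saline WT and 9.52, 26.1, 22.4 and 24.0 in OVA WT libraries. The change was -3.01 ± 0.41 (limma adjusted p = 0.000631). Tnnt2 (chr1:135836354-135852260, plus strand), the cardiac troponin subunit that ties the complex to tropomyosin, was 93.2, 130 and 214 in saline WT and 10.6, 28.7, 20.1 and 26.6 in OVA WT libraries, a change of -2.74 ± 0.42 (limma adjusted p = 0.00133). The groups stood clear of each other for both genes. Tnni3, the cardiac inhibitory troponin, had the smallest change of the role, -1.88, and Tnnc1 (the calcium-binding troponin), Lmod2 (which elongates thin filaments) and Fhod3 (a formin of the sarcomere) lay between.

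At the Z-disc 6 of 7 members fell and Ankrd1 did not pass, with a median of -2.75. Csrp3 (chr7:48830398-48848033, minus strand), a LIM protein of the Z-disc, was 17.8, 25.5 and 34.3 in saline WT and 1.14, 4.1, 3.46 and 4.45 in OVA WT libraries, a change of -2.87 ± 0.47 (limma adjusted p = 0.00186). Actn2 (sarcomeric alpha-actinin), Ldb3, Tcap (telethonin), Myoz2 (a calcineurin-binding Z-disc protein) and Xirp1 were lower too, between -3.14 for Actn2 and -2.12 for Ldb3. Ankrd1 (chr19:36111961-36120099, minus strand), a stretch-responsive ankyrin repeat protein, was 23.8, 24.6 and 44.4 in saline WT and 9.34, 17.3, 15.9 and 22.7 in OVA WT libraries. The WT groups of Ankrd1 did not overlap, yet they came within 1.05-fold of each other, and the change of -0.91 ± 0.35 gave a limma adjusted p of 0.112. With column totals made equal, the adjusted p of Ankrd1 was 0.0406.

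All 6 calcium-handling members were lower in WT, with a median of -2.68. Ryr2 (chr13:11553102-12106945, minus strand), the cardiac ryanodine receptor, was 35.1, 44.7 and 40.2 in saline WT and 4.27, 7.5, 5.99 and 6.43 in OVA WT libraries, a change of -2.64 ± 0.34 (limma adjusted p = 0.000531). Sln (chr9:53850164-53854560, plus strand), sarcolipin, the atrial inhibitor of the calcium pump, was 14.4, 17.9 and 25.6 in saline WT and 0.929, 3.51, 2.05 and 2.63 in OVA WT libraries, a change of -2.89 ± 0.38 (limma adjusted p = 0.00057). Pln, the related inhibitor phospholamban, Casq2, the calcium store protein calsequestrin, and Trdn, its anchor triadin, fell by 2.95, 2.72 and 2.10 on the log2 scale.

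Jph2, which tethers the calcium store to the surface membrane, was the calcium member that moved least. Its values were 25.9, 27.0 and 28.2 in saline WT, 22.6, 14.7, 16.3 and 15 in OVA WT, 18, 22.9 and 20.5 in saline KO, and 14.1, 15.2, 14.1 and 14.4 in OVA KO libraries. OVA WT 1, the lowest library of 40 other members, was the highest OVA library for Jph2. The WT change of -0.66 ± 0.13 was called (limma adjusted p = 0.00511).

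Of the 5 membrane and hormone genes 3 were lower in WT and Nppa and Corin did not pass. Kcnj3 (chr2:55435970-55598145, plus strand), a subunit of the acetylcholine-activated potassium channel of atrial and pacemaker cells, was 10.9, 12.8 and 13.1 in saline WT and 0.325, 1.44, 0.934 and 1.06 in OVA WT libraries. The lowest saline value was 7.59 times the highest OVA value, the widest gap of the 45 members, and the change was -3.21 ± 0.37 (limma adjusted p = 0.000362). Popdc2, a cAMP-binding membrane protein of muscle, was 10.8, 12.5 and 14.6 in saline WT and 4.02, 4.12, 3.99 and 4.75 in OVA WT libraries, a change of -1.47 ± 0.18 (limma adjusted p = 0.000386). Sgca, alpha-sarcoglycan of the membrane complex around dystrophin, was near the detection limit after OVA, at 0.0911 to 0.213.

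Nppa (chr4:148000722-148002079, plus strand) encodes atrial natriuretic peptide, the hormone stored in atrial granules. It was 48.3, 10.8 and 34.3 in saline WT, 0.674, 14.3, 3.79 and 1.58 in OVA WT, 0.502, 3.51 and 3.84 in saline KO, and 6.99, 0.927, 47.2 and 0.529 in OVA KO libraries. It was highest in saline WT 1 and OVA KO 3, and it overlapped between all pairs of groups except saline WT and saline KO. The WT change of Nppa was -2.92 ± 1.2 (limma adjusted p = 0.14), with an adjusted p of 0.0174 without OVA WT 2 and OVA KO 3, the OVA libraries highest in ciliated cell genes, and of 0.0497 without OVA KO 3 alone. The ratio of Nppa to Myl7 spanned 87.5-fold over the libraries, from 0.0125 in saline KO 1 to 1.09 in OVA KO 3. Nppb, the related ventricular peptide and not a member, was highest in OVA KO 3 and OVA WT 2, at 0.616 and 0.359.

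Corin (chr5:72300025-72504473, minus strand), the membrane protease that cuts the natriuretic peptide precursor, was 7.16, 6.43 and 7.35 in saline WT, 1.88, 4.29, 10 and 5.13 in OVA WT, 2.05, 5.52 and 3.89 in saline KO, and 3.13, 2.3, 10.4 and 3.27 in OVA KO libraries. The WT groups overlapped, since OVA WT 3 lay above all saline libraries. The change of Corin was -0.55 ± 0.49 (limma adjusted p = 0.533).

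**Figure D2:**
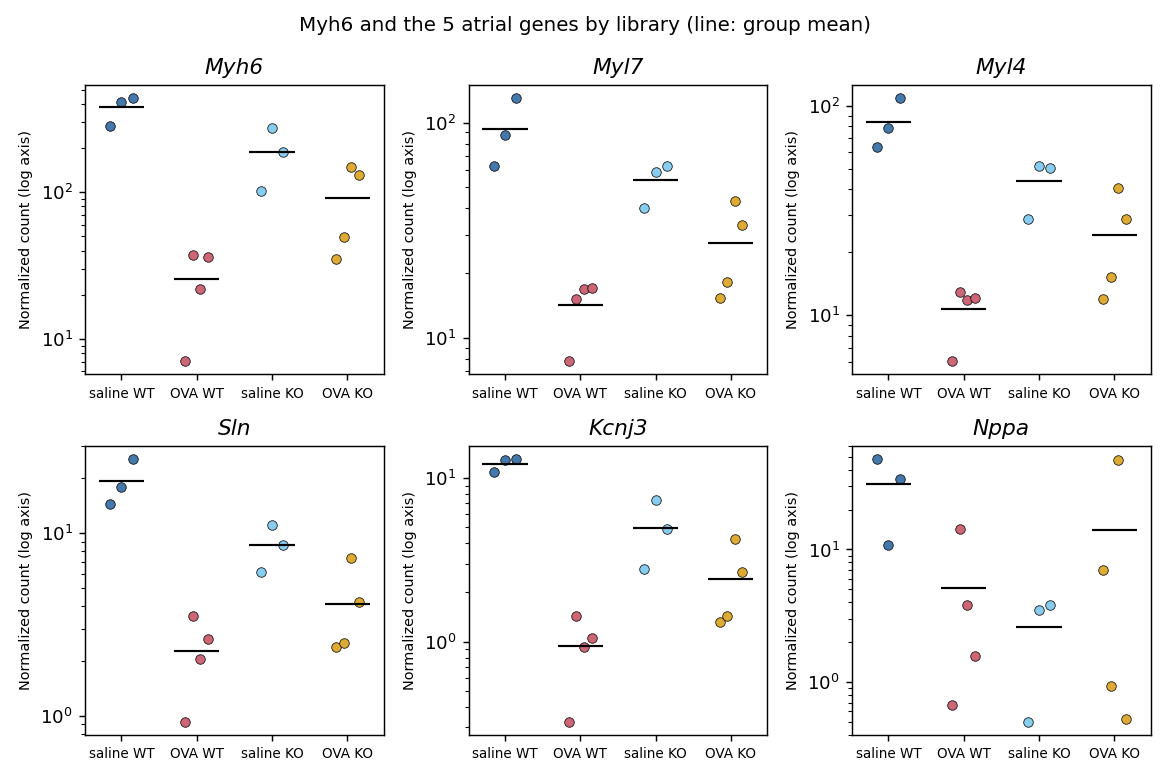
Normalized counts on log axes for Myh6 and the 5 atrial genes, with 1 point per library and a line at each group mean. For Myh6, Myl7, Myl4, Sln and Kcnj3 all saline WT points lie above all OVA WT points, while the Nppa points of all groups but the saline WT and saline KO pair overlap.

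All 8 members of energy supply were lower in WT, with a median of -2.04. Mb (chr15:77015487-77050670, minus strand), the oxygen-binding myoglobin, was 54.6, 52.6 and 76.5 in saline WT and 0.892, 8.63, 4.98 and 7.0 in OVA WT libraries, a change of -3.67 ± 0.59 (limma adjusted p = 0.00181). Fabp3 (chr4:130308595-130315463, plus strand), the heart fatty acid-binding protein, was 14.9, 18 and 27.7 in saline WT and 2.86, 4.96, 4.5 and 5.38 in OVA WT libraries, a change of -2.05 ± 0.34 (limma adjusted p = 0.00202). Saline and OVA ranges were apart for both.

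Ckm and Ckmt2, the cytosolic and mitochondrial creatine kinases of muscle, fell by 3.08 and 2.93 on the log2 scale, and Pgam2, the muscle phosphoglycerate mutase, fell by 2.02. The muscle forms of cytochrome oxidase subunits changed less: Cox6a2 by -1.68, Cox8b by -1.56 and Cox7a1 by -1.47. Their widely expressed counterparts Cox6a1, Cox8a and Cox7a2 were not called, and the ratio of Cox6a2 to Cox6a1 lay between 0.172 and 0.299 in saline WT and between 0.0467 and 0.0837 in OVA WT libraries. None of the 10 tested widely expressed partner genes was called in WT.

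All 6 regulators were lower in WT, with a median of -2.46. Hspb7 (chr4:141420779-141425311, plus strand), a small heat shock protein of heart muscle, was 17.7, 22.1 and 28.7 in saline WT and 1.14, 4.14, 4.51 and 3.76 in OVA WT libraries, a change of -2.68 ± 0.43 (limma adjusted p = 0.00156). Rbm24 (chr13:46418434-46431095, plus strand), a muscle splicing regulator, was 9.78, 10.4 and 11.1 in saline WT and 2.53, 7.22, 2.99 and 3.93 in OVA WT libraries, a change of -1.32 ± 0.32 (limma adjusted p = 0.0183). Both separated the groups, Rbm24 by the smaller margin. Eef1a2, the elongation factor form of adult muscle and nerve, Tbx20, a T-box transcription factor, Smyd1, a muscle methyltransferase, and Rbm20, the titin splicing factor, fell by 3.10, 2.74, 2.24 and 1.94 on the log2 scale.

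The calls of Cox7a1, Cox8b and Rbm24 were lost when 1 of certain libraries was left out, while their log2 changes stayed between -1.43 and -1.17 for Cox7a1, between -1.32 and -1.15 for Rbm24 and at -1.40 for Cox8b. The limma adjusted p of Cox7a1 rose to 0.107 when saline WT 2 was left out, to 0.125 for saline WT 3 and to 0.0828 for OVA WT 1. That of Rbm24 rose to 0.0652, 0.067 and 0.0538 for the same libraries, and that of Cox8b to 0.0625 when saline WT 3 was left out.

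In KO lungs the same comparison gave smaller values. None of the 45 members was called lower or higher after OVA by limma, against 0.166% of all genes called lower, although 23 (and 11.3% of all genes) had an unadjusted p under 0.05. The median change was -0.79 and 43 members were below zero, Nppa and Corin being the exceptions at 0.88 ± 1.2 and 0.15 ± 0.49. The lowest adjusted p was 0.134, for Jph2. Jph2 and Cox6a2 were the 2 members whose OVA KO libraries all lay below the saline KO libraries, a pattern seen in 7.07% of all genes. Without OVA KO 3 the median was -1.07 and none was called. Other settings called up to 8 members, with library weights, and the share of all genes called in that fit is not given here.

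**Figure D3:**
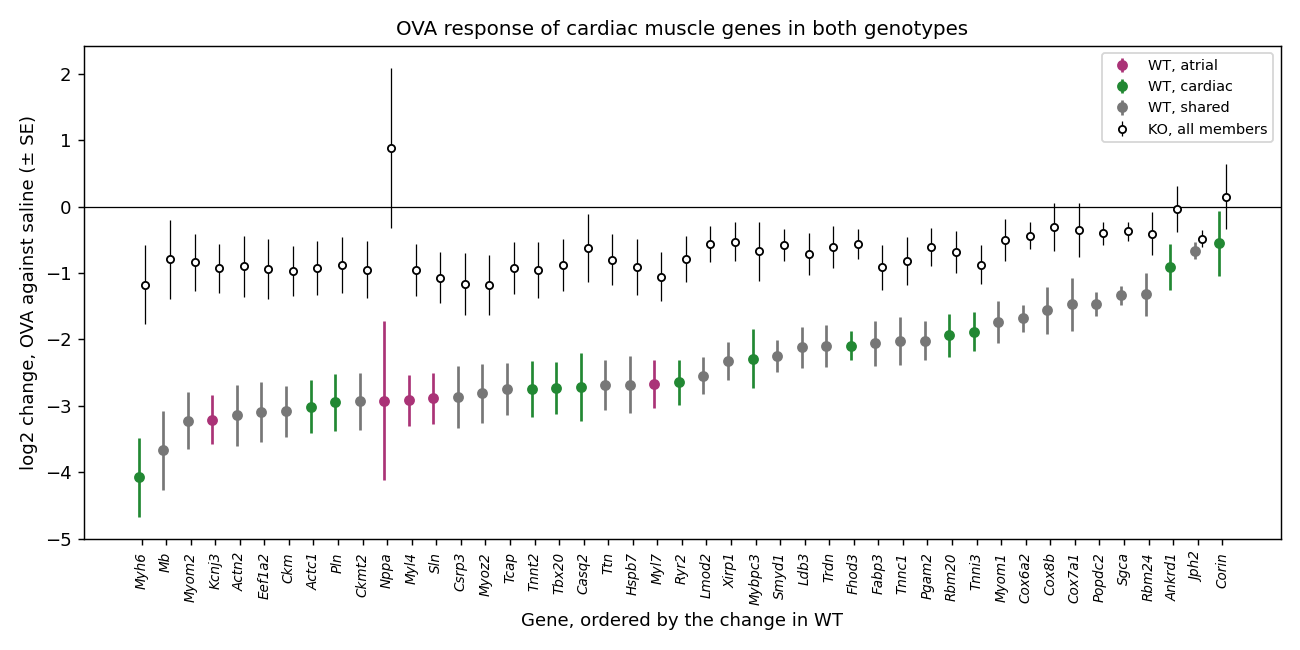
Log2 change after OVA, with its standard error, for each of the 45 genes in WT (filled, coloured by atrial, cardiac or shared class) and KO lungs (open), ordered by the WT change. WT changes run from -4.08 for Myh6 to -0.55 for Corin, and KO changes lie mostly near their median of -0.79.

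The smaller KO response did not pass a test of the difference. The OVA response of KO minus that of WT was positive for all 45 members with a median of 1.70, yet none was called, with 0.00438% of all genes called higher. Unadjusted p was under 0.05 for 40 members and 7.02% of all genes, and the lowest adjusted p was 0.542. For Myh6 the difference was 2.90 ± 0.84 (limma adjusted p = 0.639) and for Kcnj3 2.28 ± 0.52 (limma adjusted p = 0.549). A response called in WT and not in KO lungs is therefore not shown to differ between them.

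The genotypes were also compared within each treatment, and these comparisons share libraries with those of the OVA responses. After saline, 42 of the 45 members were lower in every KO library than in every WT library (5.54% of all genes), all but Tbx20, Tnnc1 and Tnnt2. The median change was -0.91 and all 45 members were below zero, but limma called none, with 0.0745% of all genes called lower. An unadjusted p under 0.05 was found for 27 members and 3.32% of all genes. As most members moved together by library, these counts do not add up to a genotype difference. Myh6 was 378 ± 82.2 in WT (n = 3) and 187 ± 86.0 in KO (n = 3), a change of -1.10 ± 0.64 (limma adjusted p = 1). Kcnj3 had a change of -1.30 ± 0.39 (limma adjusted p = 0.973) and Nppa of -3.37 ± 1.28 (limma adjusted p = 1).

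After OVA the median change of the members, KO against WT, was 0.81, with Jph2 and Corin below zero at -0.22 and -0.17, and again none was called (0.184% of all genes called higher). An unadjusted p under 0.05 was found for 26 members and 17.8% of all genes. The lowest adjusted p was 0.0891, for Smyd1. In 6 members, Ckm, Fhod3, Lmod2, Myom2, Smyd1 and Tbx20, every OVA KO library lay above every OVA WT library, as in 3.09% of all genes. Myh6 was 91.2 ± 57.4 in OVA KO (n = 4) and 25.6 ± 14.3 in OVA WT lungs (n = 4), a change of 1.81 ± 0.55 (limma adjusted p = 0.136). The OVA KO libraries spread widely: the median member stood at 16.5, 19.1, 50.1 and 34.8% of its saline WT mean in OVA KO 1 to 4, against 8.56, 18.8, 15 and 16.7% in OVA WT 1 to 4. Without OVA KO 1, 6 members were called higher, and the share of all genes called in that fit is not given here. The median was 0.53 without OVA KO 3 and 0.47 without OVA WT 1, with none called.

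Atrial and shared genes were compared through per-library scores, each the mean log2(value + 0.502) over a class. The score of the shared genes was 3.90 ± 0.31 in saline WT (n = 3), 1.62 ± 0.42 in OVA WT (n = 4), 3.04 ± 0.38 in saline KO (n = 3) and 2.33 ± 0.60 in OVA KO (n = 4). The atrial score exceeded it by 1.2 ± 0.23 in saline WT, 0.56 ± 0.34 in OVA WT, 0.57 ± 0.21 in saline KO and 0.65 ± 0.50 in OVA KO. Nppa set much of that spread. Without it the excess was 1.29 ± 0.05 in saline WT, 0.65 ± 0.11 in OVA WT, 1.13 ± 0.10 in saline KO and 0.83 ± 0.10 in OVA KO. The saline libraries then lay at 1.07 to 1.35 and the OVA libraries at 0.50 to 0.95, with no overlap between treatments. The score of the genes of both chambers exceeded that of the shared genes by 0.72 to 1.08 in all libraries. No test was run on the scores, and the added 0.502 compresses low values.

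By class, 4 of 5 atrial, 11 of 13 atrial and ventricular and all 27 tested shared genes were called lower in WT, with median changes of -2.92, -2.64 and -2.24. The classes overlapped. Changes ran from -3.21 to -2.68 for atrial genes, from -4.08 to -0.55 for genes of both chambers and from -3.67 to -0.66 for shared genes. Some shared genes thus fell more than any atrial gene, and others far less. In KO lungs the medians were -0.96, -0.79 and -0.71, with none called.

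**Figure D4:**
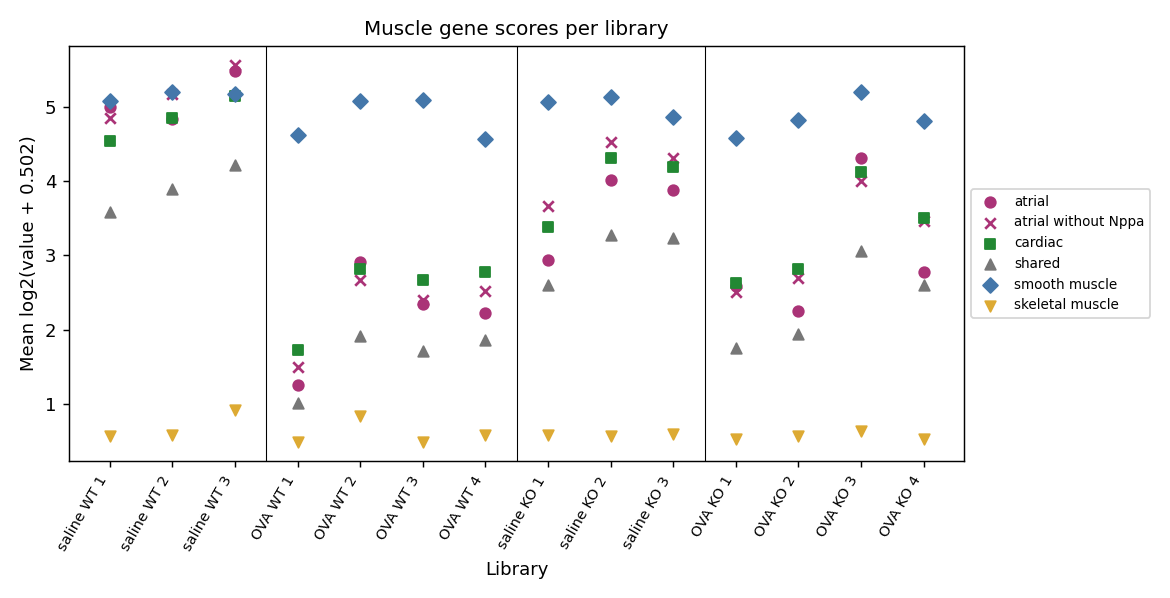
Mean log2(value + 0.502) per library for the atrial genes with and without Nppa, the genes of both chambers (cardiac), the shared genes, and lists of smooth and skeletal muscle genes. The atrial, cardiac and shared scores are all lowest in OVA WT 1 (1.01 to 1.72) and highest in saline WT 3 (4.22 to 5.48), while smooth muscle stays between 4.57 and 5.21.

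Levels between genes were compared per kilobase of exon. Per exonic kilobase Myl7 led in saline WT with a mean of 159, followed by Actc1 at 100 and Myh6 at 56.2. In OVA WT Myl7 and Actc1 kept the first ranks at 24.1 and 12.7, and Myh6 held rank 10 at 3.81. The ventricular regulatory light chain Myl2 was at most 0.155 per kilobase in any library, and the ventricular and slow muscle light chain Myl3 ran from 0.102 to 3.76. The skeletal actin Acta1 was at most 0.206 per kilobase. Ventricular Myl2 and skeletal Acta1 were thus at or near zero beside the atrial light chains. Other genes of their lists were not. In saline WT the mean per kilobase was 2.35 for Myl3, 1.43 for Myh7 and 1.09 for the skeletal troponin Tnnt3. It was 18 for atrial Myl4 and 2.36 for atrial Kcnj3.

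**Figure D5:**
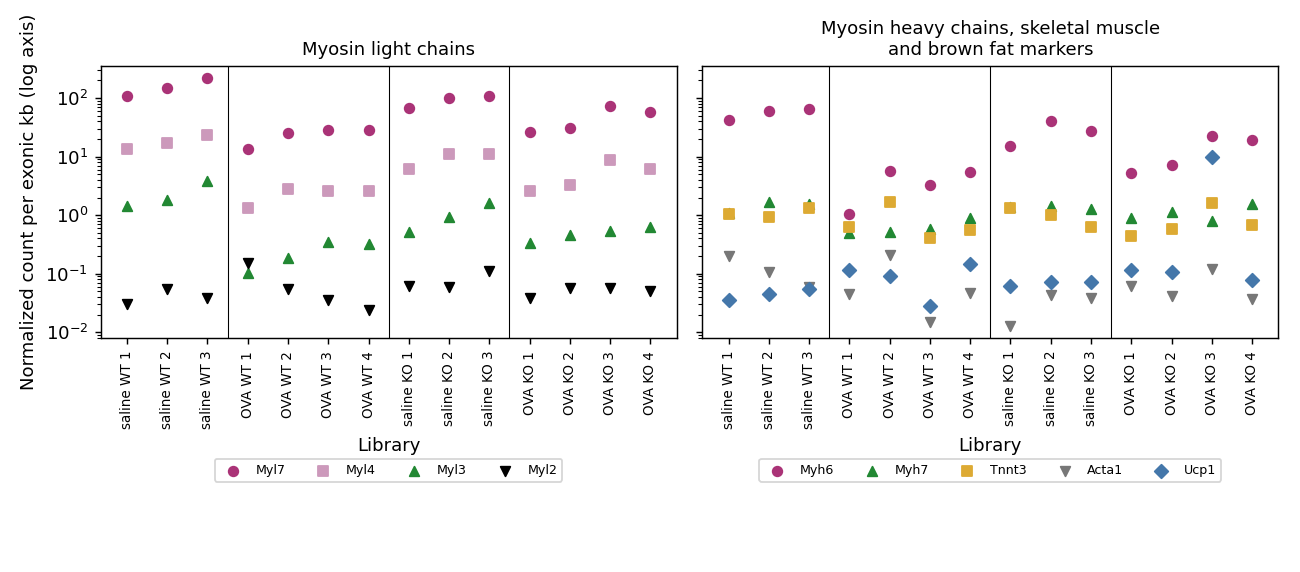
Normalized counts per kilobase of exon on log axes, with 1 point per gene and library. Left, the atrial light chains Myl7 and Myl4 lie above the ventricular Myl3 and Myl2 in every library. Right, Myh6 lies above Myh7 in every library, Acta1 stays at or below 0.206, and Ucp1 reaches 9.9 in OVA KO 3.

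Related muscle genes outside the members were taken as lists. Of 24 tested other cardiac genes, 12 were lower in WT. The list median was -0.68, with changes from -3.17 to 0.07. Atp2a2 was 431, 512 and 525 in saline WT and 168, 278, 201 and 195 in OVA WT libraries. Tbx5 overlapped between the groups, at 38, 45.3 and 35.3 in saline WT and 46, 34.2, 45.6 and 36.9 in OVA WT. Among the larger falls were those of Srl and Hrc of the calcium store, by 3.05 and 3.04 on the log2 scale. Kcnj5, the channel partner of Kcnj3, fell by 2.35. Kcnj5 was 4.7, 5.7 and 5.37 in saline WT and 0.372, 0.929, 0.592 and 0.662 in OVA WT libraries, with no overlap between the groups.

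All 3 tested ventricular genes were lower in WT. Myl3 fell by 2.35 on the log2 scale, and Myh7, the slow beta myosin heavy chain, fell from 12.4 ± 2.71 (n = 3) to 5.35 ± 1.59 (n = 4). The ratio of Myh6 to Myh7 was 28.6 to 32.7 in saline WT and 1.67 to 8.33 in OVA WT libraries. Of 8 pacemaker genes 2 were lower (Shox2 and Cacna1g), of 12 tested skeletal muscle genes 1 (the calcium pump Atp2a1) and of 9 smooth muscle genes none, with a smooth muscle median of -0.19.

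Some other lung and chest tissue markers fell in WT as the members did, and others did not. The summed level of 9 fat genes was 146 to 259 in saline WT and 58.0 to 92.3 in OVA WT, with 5 of 9 called lower. Club cell genes fell in 5 of 5, from a sum of 27100 to 33400 down to 5850 to 9590, and 2 of 5 ciliated cell genes fell. All 7 mitochondrial transcripts rose, and none of 6 alveolar, 5 mesothelial or 5 red cell genes was called. Nor was any of 2 tested thymus, 2 tested cartilage or 3 tested oesophagus genes. In KO lungs the sum of the fat genes was 105 to 175 after saline and 59.8 to 259 after OVA, with OVA KO 3 apart from the other OVA libraries. The mean log2 score of the fat genes was 3.12, 3.37 and 2.66 in saline KO libraries. It was 1.39, 0.96, 3.94 and 1.54 in OVA KO 1 to 4. The part of these tissues in the result was not tested.

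OVA KO 3, the library with the Ucp1 signal, was also high in a few members. Cox8b and Cox7a1, which are also expressed in brown fat, were 5.42 and 5.24 in OVA KO 3 and at most 1.65 and 2.08 in the other OVA KO libraries. Over all members the ratio of OVA KO 3 to OVA KO 4 had a median of 1.36, and it exceeded 2.5 for 6: Nppa, Cox8b, Corin, Mybpc3, Ankrd1 and Cox7a1. Myh6, in contrast, was 149 and 131 in these libraries. Of 2 tested brown fat genes none was called in WT, a comparison that does not bear on OVA KO 3. The part of brown fat in these values was not tested.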

How the data were processed

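Lung RNA libraries (KAPA mRNA kit, NovaSeq sequencing) were processed by the authors with STAR and Partek Flow on mm10, as the submitters' processing notes and the methods of the study name them. Values in the deposited table are a normalized signal: counts per gene, scaled by the authors, by a method not given in the sources used here, with a small offset that is the same for all genes of a library. The values are not whole reads, so no count test was run. Dividing a column by its lowest value gave the estimated reads, 47.3 M to 67.1 M per library.

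Values of genes at 0.2 ppm or more in at least 3 libraries were taken as log2(value + 0.502), a pseudocount of 0.5 ppm, and fitted with limma 3.58.1 in R 4.3.3 (trend and robust variance, 4 groups, all 14 libraries). The 5 contrasts were adjusted by Benjamini-Hochberg over 22828 genes, with a threshold of 0.05. Fold changes on this scale understate changes of low genes. Exon lengths and gene positions came from GENCODE M21 (GRCm38) by Ensembl ID, which matched for all 45 genes, and promoters from RefSeq.

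The members and lists were chosen with earlier results of these data known. Values per library are given for the atrial members, Myh6, the 2 highest members of each role and members whose call differed from their role. The authors compared groups with Partek Gene Specific Analysis, which was not used here. Replicates were numbered by the labels. The alternatives covered pseudocount, filter, scaling, offset, variance, library weights, replicate block and left-out libraries. Some results are not reported here.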

Additional observations from a re-analysis of the deposited data

Results flagged for a closer look

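In 4 of 90 groups of 4 libraries, 1 library lay apart from the other 3 past Dixon's 95% critical value, and chance gives about 1 in 20 such groups. Myl4 was 6.06 in OVA WT 1, with 11.8 to 12.9 in the other OVA WT libraries. Nppa was 47.2 in OVA KO 3, with 0.529 to 6.99 in the other OVA KO libraries. Cox8b was 5.42 in OVA KO 3, with 1.29 to 1.65 in the others. Corin was 10.4 in OVA KO 3, with 2.3 to 3.27 in the others.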

How the results depend on the processing

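The count of members lower after OVA in WT lungs was between 39 and 43 when each library was left out in turn and stayed in that range under all 27 settings. The median WT change was -1.87 with a pseudocount of 2 ppm, which compresses low values by construction. For OVA against saline in KO lungs, 8 members were called with library weights, 2 without OVA WT 2 and OVA KO 3, and 0 to 1 with each library left out. For KO against WT after OVA the count was 0 to 6 with each library left out, the 6 without OVA KO 1. For KO against WT after saline 1 member was called with library weights. Same-numbered libraries of different groups gave r from -0.319 to 0.387 (19 pairs, 5 over 0.1). Differently numbered pairs were not compared, so whether the numbers pair the libraries is not settled. With the replicate block 3 members were called for OVA against saline in KO and 5 for KO against WT after OVA. The cause was not tested. Shares of all genes called under these other settings are not given here, so the counts describe the members alone. No median and no WT change of a member changed sign. Members under 10 estimated reads (Xirp1, Sgca and Tbx20) limit the precision of low values after OVA.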
